A study of Homo sapiens with 6 samples.

Results

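The replication-dependent histone genes encode the core histones H2A, H2B, H3 and H4 and the linker histone H1 that package newly copied DNA. They were taken as all genes of the count table whose symbol begins with HIST1H, HIST2H, HIST3H or HIST4H, without the 14 rows named as pseudogenes. This gave 75 of the 58870 genes. There were 6 genes for H1, 17 for H2A, 22 for H2B, 15 for H3 and 15 for H4. The HIST1 cluster on chromosome 6 held 55 of them, HIST2 on chromosome 1 held 15, HIST3 on chromosome 1 held 4 and HIST4 on chromosome 12 held 1. The annotation marks 5 of the 75 as pseudogenes (HIST2H2BA, HIST2H2BB, HIST2H2BD, HIST2H3DP1 and HIST3H2BA).

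The libraries came from HEK-293T, an immortalized human embryonic kidney line, grown in DMEM. The wild-type (WT) group is labelled Thumpd+/+, and the THUMPD1 KO group, labelled Thumpd-/-, was made from WT cells with CRISPR-Cas9, a pair of guides, sorting of GFP-positive cells and then single-cell sorting. The sources used here do not say whether the sequenced THUMPD1 KO cells came from a single clone, or whether the WT cells were cloned, and genotype and any clonal difference cannot be told apart. Each group had 3 libraries of total RNA depleted of ribosomal RNA. The labels do not say that these were separate cultures, so p values measure only the spread between these libraries, which may be technical. Total expected counts lay between 32225646 and 44099898 per library. THUMPD1 itself, the adaptor through which NAT10 acetylates tRNA, had 77.3, 84.6 and 80.8 CPM (counts scaled to a common library total) in WT and 10.2, 12.0 and 11 CPM in THUMPD1 KO (log2 fold change −2.87, SE 0.0845, limma-voom adjusted p 3.17e-08). Of the markers listed for HEK-293T, VIM lay between 258 and 312 CPM, KRT8, KRT18, PAX2 and LHX1 were all above 1 CPM in every library, and PTPRC, ALB and COL1A2 were at most 0.103 CPM.

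Histone genes of this class have no introns, are transcribed mainly in S phase, and make the only known animal mRNAs that end in a stem-loop in place of a poly(A) tail. The stem-loop binding protein SLBP holds this hairpin, and the U7 small nuclear ribonucleoprotein guides the cut behind it. Replacement histones such as H3.3 and H2A.Z come from other genes, are made throughout the cell cycle and carry poly(A) tails. Libraries selected for poly(A) lose most replication-dependent histone mRNA, whereas depletion of ribosomal RNA keeps it.

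In the reference transcript taken for each gene, all 75 had a single exon, with transcripts of 381 to 2224 bases (median 487). Other transcripts of these genes were not examined. A stem-loop was searched for in the 150 bases after the stop codon, as a stem of 6 bases beginning GG, any loop of 4 bases and the exact complement of the stem. It was found in 68 of the 70 genes with a coding sequence (97.1%) and in 11 of 4080 other protein-coding genes on the same chromosomes (0.27%). HIST1H2AG and HIST1H2AK had no match, which says only that these letters are not in this window. There were 8 distinct hairpins, and the most frequent was shared by 40 genes of all types but H4. All 15 H4 hairpins had the stem GGCCCT, and every other hairpin had GGCTCT. Examples of the main forms are shown on the strand of the gene, in the GRCh38 genome, with the stem in capitals, since this hairpin is what sets these mRNAs apart from the rest of the library.
HIST1H2AL, chr6:27865773-27865798, plus strand: acaacGGCTCTtttcAGAGCCaccta
HIST1H1C, chr6:26055739-26055764, minus strand: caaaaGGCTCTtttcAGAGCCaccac
HIST1H2BJ, chr6:27132316-27132341, minus strand: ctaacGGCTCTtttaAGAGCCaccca
HIST2H2AC, chr1:149887386-149887411, plus strand: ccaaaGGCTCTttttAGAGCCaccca
HIST1H4J, chr6:27824454-27824479, plus strand: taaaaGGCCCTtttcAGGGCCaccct

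The promoters differed between types. Promoter sequences from RefSeq (GRCh38.p14, 250 bases before to 50 after the start) were searched for 63 of the 75 genes, without 2 (HIST1H3D and HIST1H3E) whose RefSeq start lies over 500 bases from that of the transcript used, and each motif was searched on both strands. No motif searched contains another. The octamer ATTTGCAT, which POU2F1 (OCT1) binds, was in 11 of 16 H2A and 14 of 18 H2B promoters and in none of the H1, H3 and H4 promoters (1.7% of all other promoters). The motif CCAAT was in every H1, H2A, H2B and H3 promoter and in 3 of 13 H4 promoters (34.5% of others). TATAAA was in 42 of 63 (11.4% of others), and AAACACA, known as the H1 box, was in all 6 H1 promoters and in 3 others (5.63% of others). A promoter each of an H1, an H2B, an H3 and an H4 gene is shown, the 250 bases before the start on the strand of the gene, with all matches to these 4 motifs in capitals.
HIST1H1E, chr6:26156079-26156328, plus strand: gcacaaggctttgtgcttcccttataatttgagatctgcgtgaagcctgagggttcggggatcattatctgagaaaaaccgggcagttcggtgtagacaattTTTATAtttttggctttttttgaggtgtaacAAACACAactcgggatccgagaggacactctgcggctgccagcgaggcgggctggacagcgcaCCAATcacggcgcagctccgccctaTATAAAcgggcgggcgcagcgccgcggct
HIST1H2BJ, chr6:27132796-27133045, minus strand: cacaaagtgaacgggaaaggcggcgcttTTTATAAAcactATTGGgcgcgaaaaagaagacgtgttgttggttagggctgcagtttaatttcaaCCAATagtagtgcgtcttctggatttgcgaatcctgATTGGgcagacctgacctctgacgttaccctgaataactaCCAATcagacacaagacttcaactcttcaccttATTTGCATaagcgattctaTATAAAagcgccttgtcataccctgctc
HIST1H3H, chr6:27809801-27810050, plus strand: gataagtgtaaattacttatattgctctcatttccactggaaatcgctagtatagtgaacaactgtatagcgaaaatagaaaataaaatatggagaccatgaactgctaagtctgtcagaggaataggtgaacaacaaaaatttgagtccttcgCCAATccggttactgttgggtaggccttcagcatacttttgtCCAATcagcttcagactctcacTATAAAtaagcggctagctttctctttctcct
HIST1H4J, chr6:27823842-27824091, plus strand: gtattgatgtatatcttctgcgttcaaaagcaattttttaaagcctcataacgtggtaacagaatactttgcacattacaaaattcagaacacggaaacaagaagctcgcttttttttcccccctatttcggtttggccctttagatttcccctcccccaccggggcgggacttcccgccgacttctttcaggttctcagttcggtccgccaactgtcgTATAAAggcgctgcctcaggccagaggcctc
The stretch shown for HIST1H2BJ covers the whole interval between its start and that of HIST1H2AG on the other strand, which lies 248 bases away.

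Histone mRNA of this class was lower in THUMPD1 KO in the sums of all 5 histone types and of the HIST1, HIST2 and HIST3 loci, at 81.8% of the WT level in sum. Summed over the 75 genes, the level was 10090.5, 10121 and 10277 CPM in WT replicates 1, 2 and 3 and 9059, 7940.3 and 7949 CPM in THUMPD1 KO replicates 1, 2 and 3. The same order of libraries is kept for all values that follow. The mean was 10163 ± 99.98 CPM in WT and 8316 ± 643 CPM in THUMPD1 KO (SD, n = 3 each), a log2 ratio of −0.29. These genes thus made up 1.02% of the counts in WT and 0.832% in THUMPD1 KO. All 3 KO libraries lay below all 3 WT libraries, and replicate 1 of THUMPD1 KO lay between WT and the other KO libraries. Sums over chosen genes are described here without a test.

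Each type showed a difference of similar size. The summed log2 ratio was −0.32 for H1, −0.31 for H2A, −0.26 for H2B, −0.28 for H3 and −0.28 for H4. H2A took the largest share of counts, with 2571 ± 23.6 CPM in WT and 2068 ± 168 CPM in THUMPD1 KO (SD, n = 3 each), and H1 the least, with 1557 ± 28.5 and 1249 ± 75.2 CPM. For H4 the WT libraries themselves were spread, with 1844, 2082 and 2108 CPM against 1736, 1607 and 1612 CPM in THUMPD1 KO. In every type the KO libraries lay below the WT libraries, with the narrowest gap in H4, between WT replicate 1 and KO replicate 1. Whether the types differed from each other was not tested.

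**Figure D1:**
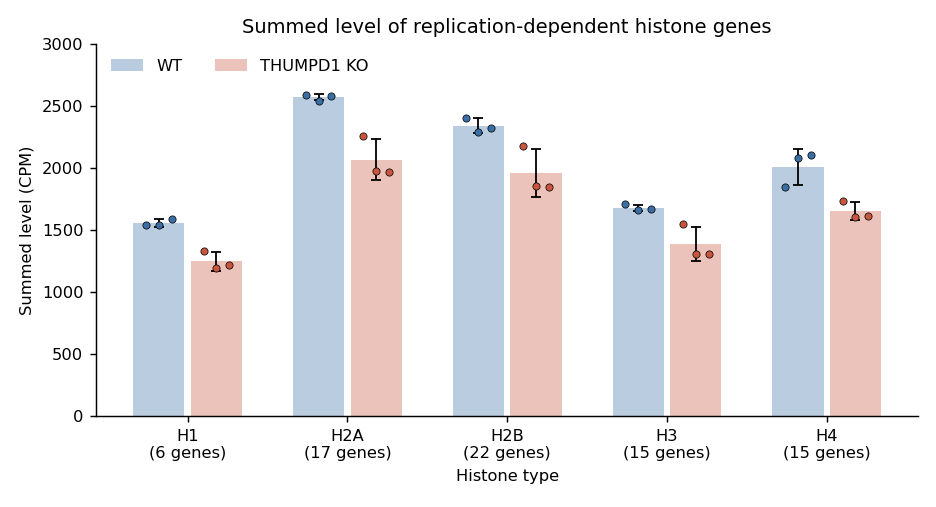
Summed level of replication-dependent histone genes (CPM, linear axis from 0) for each histone type in WT and THUMPD1 KO. Points are libraries in the order of replicates 1, 2 and 3, bars are means and error bars are SD (n = 3); in each type all KO points lie below all WT points, and KO replicate 1 is the highest of the KO points.

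Of the 75 genes, 51 reached 1 CPM in 3 or more libraries and were tested among 15088 genes. By limma-voom with Benjamini-Hochberg adjustment, 36 of these 51 passed an adjusted p of 0.05, 35 lower and 1 higher in THUMPD1 KO. Over all tested genes 26.7% passed, 13% lower and 13.7% higher. The median log2 fold change of the 51 was −0.30 (quartiles −0.37 and −0.19), against 0.02 (−0.12 and 0.14) for all tested genes. A negative fold change was found for 45 of the 51 and for 46.4% of all tested genes. The KO libraries lay wholly below the WT libraries for 32 members (17.6% of all tested genes) and wholly above for 1 (24.5%), 33 in all (42.2%). HIST1H2BG passed the filter only through WT, where it was higher, so its test could go in 1 direction only. Without it, 35 of 50 members passed, 34 lower (26.9% of 14202 genes with at least 1 CPM in all 6 libraries). With no filter on CPM, 30 of 69 passed, all lower (10.1% of 31730 genes).

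The medians of the WT libraries were alike and those of the KO libraries less so. Over the 44 members with a mean of at least 10 CPM, the median log2 distance from the WT mean was −0.01 in WT replicates 1 and 2 and 0.00 in WT replicate 3, against −0.18, −0.36 and −0.34 in THUMPD1 KO. Distances taken from the WT mean hold the WT medians near 0, and single genes were spread within WT too. The quartiles were −0.11 and 0.07 in WT replicate 1 and −0.40 and −0.31 in KO replicate 3. All 44 lay below the WT mean in KO replicates 2 and 3, and 39 did so in KO replicate 1. KO replicate 1 was the highest of the KO libraries for 45 of the 51 tested members, and for 46.5% of all tested genes. Without KO replicate 1, 38 members passed, 36 lower and 2 higher (24% of all tested genes passed), with a median log2 fold change of −0.34.

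Whichever library was left out, 26 of the 36 calls were kept. The 10 that could be lost were HIST1H2AI, HIST1H2BC, HIST1H2BE, HIST1H3F, HIST1H3J, HIST1H4A, HIST1H4B, HIST1H4H, HIST2H2BE and HIST2H2BF, with highest adjusted p values between 0.0687 and 0.166. All 10 were lost without KO replicate 3, and all but HIST1H3J without KO replicate 2. Without KO replicate 1 only HIST1H4B and HIST1H4H were lost, and without WT replicate 1 only HIST1H2AI, HIST1H2BE and HIST2H2BE. Those lost without WT replicate 3 were HIST1H2BC, HIST1H2BE, HIST1H3F, HIST1H3J, HIST1H4A, HIST1H4B and HIST1H4H, and without WT replicate 2 the same genes but HIST1H3F.

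**Figure D2:**
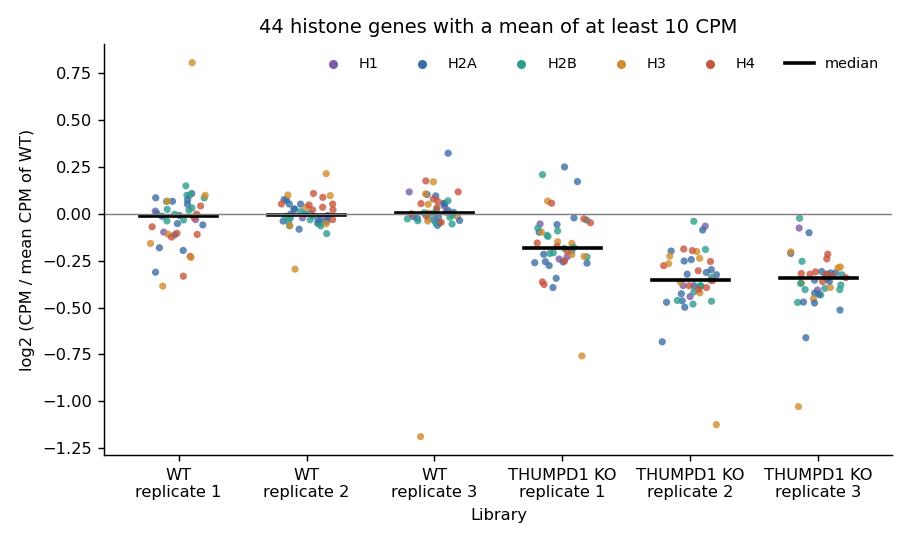
Level of each of the 44 histone genes with a mean of at least 10 CPM, as the log2 ratio to the mean of the 3 WT libraries, in each of the 6 libraries. Points are genes coloured by histone type and black lines are medians over genes; the WT medians lie at −0.01 to 0.00 and the KO medians at −0.18, −0.36 and −0.34, and the orange points far from the rest in WT replicates 1 and 3 are HIST2H3A.

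Among the linker histones, which bind DNA between nucleosomes, 2 of 3 tested genes fell (13% of all tested genes were lower). HIST1H1C (H1-2) had 769, 749 and 766 CPM in WT and 649, 584 and 599 CPM in THUMPD1 KO. HIST1H1E (H1-4) had 676, 686 and 710.0 CPM in WT and 584, 508 and 521 CPM in THUMPD1 KO. Both showed a clear gap between the genotypes, with log2 fold changes of −0.31 (SE 0.0471, limma-voom adjusted p 0.000979) and −0.34 (SE 0.05, adjusted p 0.000782). HIST1H1D (H1-3) behaved otherwise, with 97.7, 103 and 113 CPM in WT and 101, 99.9 and 99.2 CPM in THUMPD1 KO, groups that overlap (log2 fold change −0.07, SE 0.0562, adjusted p 0.402). Per kilobase of transcript, HIST1H1C stood at 1042 CPM, HIST1H1E at 877 CPM and HIST1H1D at 135 CPM in WT. The other 3 linker genes were not tested. HIST1H1B (H1-5) had at most 2 counts and HIST1H1A (H1-1) at most 4 counts in any library, and the testis gene HIST1H1T (H1-6) had 33, 39 and 32 counts in WT and 18, 15 and 20 counts in THUMPD1 KO.

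H2A, which pairs with H2B in the nucleosome, had 15 tested genes, of which 11 were lower, none was higher and 4 did not pass. That was 73.3% lower, beside 13% of all tested genes. The smallest adjusted p of the whole class belonged to HIST1H2AL (H2AC16), with 78.0, 72.8 and 72.7 CPM in WT and 56.7, 46.4 and 47.1 CPM in THUMPD1 KO (log2 fold change −0.58, SE 0.0682, limma-voom adjusted p 0.000191). Its KO libraries were all well under its lowest WT library. HIST1H2AG (H2AC11), the most abundant H2A gene of the HIST1 cluster, had 411, 426 and 442 CPM in WT and 367, 341 and 343 CPM in THUMPD1 KO (log2 fold change −0.31, SE 0.0449, adjusted p 0.000730). HIST2H2AC (H2AC20), on chromosome 1, had 111, 112 and 114 CPM in WT and 93.7, 81.0 and 80.7 CPM in THUMPD1 KO (log2 fold change −0.41, SE 0.0551, adjusted p 0.000416). HIST1H2AM (−0.41), HIST1H2AH (−0.32), HIST1H2AI (−0.30) and HIST1H2AK (−0.27) were also lower. Not all H2A genes moved. HIST2H2AB (H2AC21), singled out after its values were seen, had 47.6, 51.4 and 49.9 CPM in WT and 59.0, 46.7 and 46.3 CPM in THUMPD1 KO, which overlap (log2 fold change 0.02, SE 0.0824, adjusted p 0.874).

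H2B had 14 tested genes, with 11 lower (78.6%, beside 13% of all tested genes), 1 higher and 2 that did not pass. Without HIST1H2BG, which passed the filter only through WT, 10 of 13 were lower. The most abundant H2B gene, HIST2H2BF (H2BC18), had 610.3, 595 and 597 CPM in WT and 564, 475 and 464 CPM in THUMPD1 KO (log2 fold change −0.27, SE 0.0674, limma-voom adjusted p 0.0130). HIST1H2BJ (H2BC11) had 152, 137 and 141 CPM in WT and 124, 109.8 and 109 CPM in THUMPD1 KO (log2 fold change −0.35, SE 0.0576, adjusted p 0.00143). In both genes the lowest WT library was above the highest KO library. HIST1H2BC (H2BC4) differed least among the H2B genes called, with 351, 353 and 353 CPM in WT and 344, 309 and 295 CPM in THUMPD1 KO (log2 fold change −0.18, SE 0.0549, adjusted p 0.0345). HIST2H2BE (H2BC21), the member with the longest transcript, 2224 bases, had 320.3, 268 and 278 CPM in WT and 274, 226 and 231 CPM in THUMPD1 KO. KO replicate 1 of HIST2H2BE lay within the WT range (log2 fold change −0.27, SE 0.0778, adjusted p 0.0272). The only member called higher, HIST1H2BE (H2BC6), was near the filter, with 1.35, 1.23 and 1.37 CPM in WT, below 1.88, 1.90 and 2.39 CPM in THUMPD1 KO (log2 fold change 0.52, SE 0.168, adjusted p 0.0426). It was called in 8 of 15 alternative fits.

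H3, the histone with the best-studied tail marks, had 9 tested genes, 4 lower, none higher and 5 that did not pass. The 4 were 44.4%, beside 13% of all tested genes. HIST1H3H (H3C10) had 359.6, 331 and 339.6 CPM in WT and 295, 256 and 251 CPM in THUMPD1 KO (log2 fold change −0.38, SE 0.0672, limma-voom adjusted p 0.00233). HIST1H3B (H3C2) had 297, 266 and 271 CPM in WT and 251, 216 and 215 CPM in THUMPD1 KO (log2 fold change −0.32, SE 0.0664, adjusted p 0.00560). Neither gene's groups overlapped. HIST1H3F (−0.44) and HIST1H3J (−0.27) were the other 2 called. HIST1H3A, with a log2 fold change of −0.19, had an adjusted p of 0.0762, and HIST1H3E, with 0.17, had an adjusted p of 0.265.

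H4, the partner of H3, had 10 tested genes, 7 lower (70%, beside 13% of all tested genes), none higher and 3 that did not pass. Without WT replicate 2 or 3 or KO replicate 2 or 3, 4 H4 genes were lower (8.9 to 11% of all tested genes). HIST1H4J (H4C11) had 279, 315 and 318 CPM in WT and 234, 229.7 and 236 CPM in THUMPD1 KO (log2 fold change −0.39, SE 0.0526, limma-voom adjusted p 0.000407). HIST2H4A (H4C14) had 631, 706 and 707 CPM in WT and 604, 532 and 538 CPM in THUMPD1 KO (log2 fold change −0.28, SE 0.0521, adjusted p 0.00304). Its level per kilobase was the highest of all members (1721 CPM per kilobase in WT). That rank rests on how reads were divided with its copy HIST2H4B. HIST1H4C (H4C3) had 249, 272 and 282 CPM in WT and 225, 221 and 214 CPM in THUMPD1 KO (log2 fold change −0.30, SE 0.0512, adjusted p 0.00189). WT replicate 1 was the lowest WT library in these 3 genes, and each KO library was lower still. In HIST1H4B and HIST1H4H that same WT library fell among the KO libraries, at 137 and 143 CPM against 132 to 139 and 135 to 145 CPM, and both were called lower (adjusted p 0.0266 and 0.0300).

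**Figure D3:**
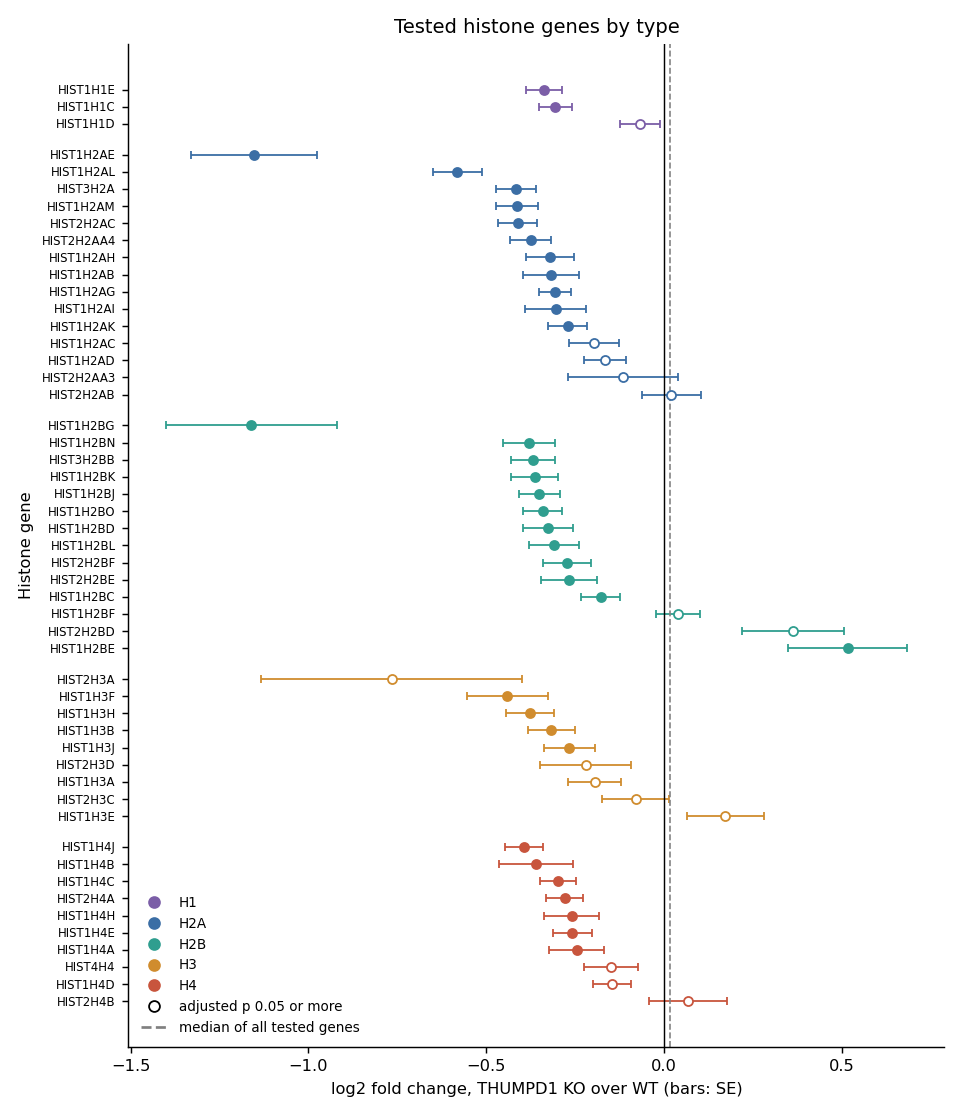
Log2 fold change of the 51 tested histone genes, THUMPD1 KO over WT, with SE as horizontal bars, grouped by histone type and ordered within each type. Filled points passed an adjusted p of 0.05 (limma-voom); 35 of the 36 filled points lie left of 0, and HIST1H2BE is the exception.

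Some members are near copies of each other, and the counting had to divide their reads by estimate. Of the 75 genes, 11 shared more of their 75-base windows than not with another member and 45 shared none. HIST2H3A and HIST2H3C, whose windows are all shared, show the division. HIST2H3A had 297, 139 and 74.8 CPM in WT and 101, 78.2 and 83.5 CPM in THUMPD1 KO, while HIST2H3C had 573, 689 and 757 CPM and 705, 575 and 585 CPM. In WT, where one was high the other was low, while in THUMPD1 KO replicate 1 was the highest for both. Neither passed (adjusted p 0.147 and 0.570; with replicate number as a block HIST2H3A passed, at 0.0152). Their sum was 870.1, 828 and 832 CPM in WT and 806, 654 and 668 CPM in THUMPD1 KO, without overlap (log2 ratio −0.25). HIST2H4A and HIST2H4B have the same sequence in the reference transcripts compared here. They received 681 and 9.65 CPM on average in WT, a split that these sequences alone cannot give. The summed level of HIST2H4A and HIST2H4B had a log2 ratio of −0.28. HIST2H2AA4 was called lower (857, 793 and 794 CPM against 679, 591 and 605 CPM, log2 fold change −0.37, adjusted p 0.00103) and its copy HIST2H2AA3 was not (adjusted p 0.622). Their sum had a log2 ratio of −0.36. HIST1H4J shares 92% of its windows with HIST1H4K and HIST1H2AI shares 64.2% with HIST1H2AJ, so the values of single genes in these pairs are uncertain. Among members that shared under 10% of their windows, 28 of 38 tested genes were lower, HIST1H2BG among them, and none was higher. That was 73.7% lower, beside 13% of all tested genes, with a median log2 fold change of −0.31.

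Reads can also belong to overlapping genes. By the GENCODE annotation, 32 of the 75 members overlap another gene on either strand, several of them long non-coding loci such as ENSG00000291336, and whether the counting used strand is not given in the sources used here. Of the 32 tested members that overlap no other gene, 25 were lower (78.1%) and none was higher (median −0.31). Of the 19 tested members that do, 10 were lower (52.6%, HIST1H2BG among them) and 1 was higher (median −0.20). Over all tested genes 13% were lower. The 6 tested members that overlap ENSG00000291338 on the same strand ran from HIST1H2AE (−1.15), HIST1H2BD (−0.33) and HIST1H4E (−0.26) to HIST1H2BF (0.04), HIST1H3E (0.17) and HIST1H2BE (0.52).

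Most H2A and H2B genes lie head to head in pairs that share a promoter region. There were 13 such pairs with starts 194 to 291 bases apart, 11 had both genes tested, and in 8 both were called lower, or 7 without the pair of HIST1H2BG. HIST1H2BJ and HIST1H2AG, whose common promoter is shown above, had log2 fold changes of −0.35 and −0.31. HIST1H2BL and HIST1H2AI had −0.31 and −0.30, and HIST1H2BK and HIST1H2AH had −0.36 and −0.32. HIST3H2A and HIST3H2BB, on chromosome 1, had −0.42 and −0.37. The lowest fold changes were those of HIST1H2BG and HIST1H2AE, both at low counts. HIST1H2BG had 1.45, 1.30 and 1.07 CPM in WT and 0.823, 0.408 and 0.745 CPM in THUMPD1 KO. HIST1H2AE had 3.09, 2.68 and 2.15 CPM in WT and 1.52, 1.20 and 1.09 CPM in THUMPD1 KO. The log2 fold change of HIST1H2BG, given without its p because of the filter, was −1.16, and that of HIST1H2AE was −1.15 (SE 0.177, limma-voom adjusted p 0.000961). In the pair HIST1H2AD and HIST1H2BF neither gene passed (−0.17 and 0.04, adjusted p 0.0597 and 0.677; with replicate number as a block HIST1H2AD passed, at 0.0395). The difference in log2 fold change within a pair ran from 0.0059 to 0.48. The largest was between HIST2H2AA3, which shares reads with HIST2H2AA4, and HIST2H2BD, an annotated pseudogene. The next largest was 0.205, between HIST1H2AD and HIST1H2BF. Tested members with the octamer in the promoter had a median log2 fold change of −0.31 (18 genes, 13 or 72.2% lower, HIST1H2BG among them). Those without it had −0.31 (27 genes, 18 or 66.7% lower). Over all tested genes 13% were lower.

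The fall was present in HIST1 on chromosome 6 and outside it. The HIST1 sum was 6212, 6298 and 6416 CPM in WT and 5545, 4965 and 4953 CPM in THUMPD1 KO (6309 ± 102 and 5154 ± 338 CPM, SD, n = 3 each; log2 ratio −0.29). The genes of the other loci together had 3878, 3822 and 3861 CPM in WT and 3514, 2975 and 2996 CPM in THUMPD1 KO (log2 ratio −0.29). Both sums were without overlap between genotypes. Of 36 tested HIST1 genes 28 were lower (77.8%) and 1 was higher (median −0.31). Without HIST1H2BG, which passed the filter only through WT, 27 of 35 were lower. Of 15 tested genes outside HIST1 7 were lower (46.7%) and none was higher (median −0.27). Over all tested genes 13% were lower. HIST2 had 5 of 12 lower (41.7%), and its sum had a log2 ratio of −0.28. Of the 12, HIST2H2AA3, HIST2H3A, HIST2H3C and HIST2H4B, all not called, share reads with a copy. So do HIST2H2AA4 and HIST2H4A, both called lower. HIST3 had both tested genes lower, HIST3H2A with 95.1, 89.7 and 90.8 CPM in WT and 75.8, 65.0 and 66.3 CPM in THUMPD1 KO (log2 fold change −0.42, SE 0.0556, limma-voom adjusted p 0.000406) and HIST3H2BB with a log2 fold change of −0.37 (adjusted p 0.00172). The single HIST4 gene, HIST4H4 (H4C16) on chromosome 12, had 50, 51.7 and 48.5 CPM in WT and 52.0, 43.9 and 40.1 CPM in THUMPD1 KO, which overlap (log2 fold change −0.15, SE 0.0770, adjusted p 0.177). Whether the loci differed from each other was not tested.

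The HIST1 cluster spans 2.17 Mb, and 19 tested genes within it were not members. Of these, 3 were lower and 2 were higher (26.3% called, beside 26.7% of all tested genes), with a median log2 fold change of −0.06. Within 2 Mb on either side, 35 genes were tested, 3 lower and 4 higher (20% called), with a median of 0.08. Around HIST2, 68 genes within 2 Mb on either side had 4 lower and 9 higher (19.1% called), with a median of 0.02.

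**Figure D4:**
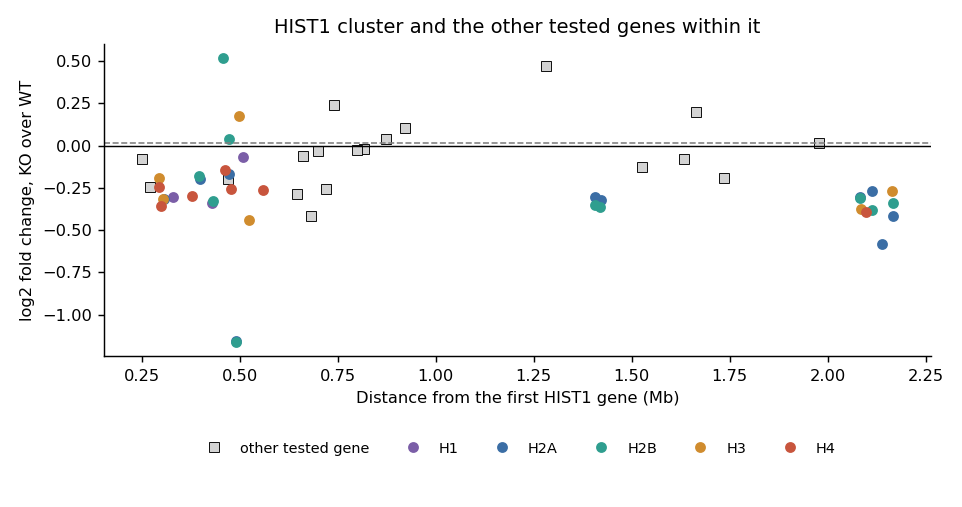
Log2 fold change, THUMPD1 KO over WT, of tested genes along the HIST1 cluster, against distance from its first gene in Mb. Coloured points are the 36 tested histone genes and grey squares the 19 other tested genes; the dashed line is the median of all tested genes (0.02), and the median is −0.31 for the histone genes and −0.06 for the others.

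Members below the filter mostly had few or no counts. Of the 24 not tested, 17 had at most 3 counts in every library, and 6 of these (HIST1H2AA, HIST1H2BI, HIST1H3D, HIST1H4F, HIST1H4G and HIST1H4L) had no count in any. At these depths 0 counts allow a level of up to 0.0680 to 0.0931 CPM (3 counts, counting error only). HIST1H2BH (H2BC9), singled out after its values were seen, had 32, 29 and 35 counts in WT and 9, 12 and 8 counts in THUMPD1 KO, without overlap and without a test.

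The members are short and rich in G and C. Their median GC content was 58.5% against 47.9% for all tested genes, and their median transcript length 492 against 3116 bases. After removal of a trend with GC content and length from every library, 29 members passed, 27 lower and 2 higher (29.3% of all tested genes passed, 14.4% lower), and the members' median log2 fold change was −0.23. With a block for replicate number added, 36 passed (36.9% of all tested genes). Of 781 other tested genes with transcripts of 381 to 797 bases, 58 were lower and 61 higher, with a median of 0.02. Among the 319 of these that are protein-coding, 38 were lower and 26 higher, with a median of 0.01.

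The genes that drive histone transcription had calls in both directions. Of 7 listed, 1 was higher and 2 were lower (42.9% called, beside 26.7% of all tested genes), with a median of 0.02. NPAT, the coactivator of histone genes, had 83.0, 81.5 and 82.3 CPM in WT and 84.4, 84.3 and 78.0 CPM in THUMPD1 KO, which overlap (log2 fold change −0.01, SE 0.0453, limma-voom adjusted p 0.863). POU2F1, whose octamer is in the promoters above, had a log2 fold change of 0.02 (adjusted p 0.722). CCNE2, a cyclin of S-phase entry, was higher (0.37, adjusted p 0.0161; up to 0.0610 without KO replicate 1 or 2), and its partner kinase CDK2 was lower (−0.16, adjusted p 0.0165; up to 0.0708 without WT replicate 2 or 3 or KO replicate 3). CRAMP1, a regulator of linker histone genes, was lower, with 60.6, 55.4 and 57.5 CPM in WT and 45.3, 41.5 and 47.2 CPM in THUMPD1 KO (−0.38, SE 0.0553, adjusted p 0.000693). CRAMP1 lies on the short arm of chromosome 16 between THUMPD1 and the chromosome end, where 188 of 242 tested genes were lower (median −0.40). On chromosome 22, 253 of 375 tested genes were lower (median −0.34). Without CRAMP1, 6 transcription genes had 1 higher and 1 lower (33.3% called, median 0.05). No histone member lies on chromosome 22 or in that stretch of chromosome 16, and this is said of each gene named below that does.

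Of 20 tested genes for the processing of the histone mRNA end, 1 was higher and 1 was lower (median −0.01). This was 10% called, beside 26.7% of all tested genes. SLBP, which binds the hairpin, had 84.7, 83.9 and 83.3 CPM in WT and 86.2, 84.4 and 82.9 CPM in THUMPD1 KO, and the groups overlap (log2 fold change −0.00, SE 0.0399, limma-voom adjusted p 0.997). CASP8AP2 (FLASH), which joins SLBP-bound mRNA to the U7 particle, had a log2 fold change of −0.01 (adjusted p 0.845). The U7-specific Sm-like proteins LSM10 and LSM11 had 0.12 (adjusted p 0.198) and −0.17 (adjusted p 0.0510; 0.0138 with replicate number as a block). ZNF473 (ZFP100), a zinc finger protein of the U7 complex, was higher, with 32.7, 30.1 and 30.4 CPM in WT and 39.2, 37.6 and 37.1 CPM in THUMPD1 KO (0.29, SE 0.0523, adjusted p 0.00236). SNRPD3, a shared Sm protein, was lower (−0.22, adjusted p 0.00320) and lies on chromosome 22. The U7 RNA gene RNU7-1 had no count in any library. With a block for replicate number 4 of the 20 processing genes passed (20%, beside 35.1% of all tested genes). Of 5 decay genes 2 were called (40%, beside 26.7% of all tested genes). UPF1 was higher (0.21, limma-voom adjusted p 0.00563). ERI1, an exonuclease that trims the stem-loop end, was lower (−0.22, limma-voom adjusted p 0.0128). For ERI1 the adjusted p was up to 0.0609 without WT replicate 3 or KO replicate 3.

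Replacement histones had more genes higher than lower. Of 11 tested, 4 were higher and 1 was lower (45.5% called). Over all tested genes 26.7% were called, 13.7% higher and 13% lower. The median log2 fold change was 0.09, against −0.30 for the replication-dependent genes. H3-3B, one of the genes for H3.3, had 247, 260.4 and 251 CPM in WT and 297, 285 and 289.9 CPM in THUMPD1 KO (log2 fold change 0.19, SE 0.0414, limma-voom adjusted p 0.00691). H3-3A, the other, had a log2 fold change of 0.15 (adjusted p 0.0318), a call kept only without WT replicate 3 when 1 library was left out (up to 0.0866 otherwise). MACROH2A1, a large H2A variant of repressed chromatin, had 245, 238 and 247 CPM in WT and 290.4, 286 and 285 CPM in THUMPD1 KO (0.23, SE 0.0382, adjusted p 0.00167). In these genes every KO library was above every WT library. CENPA, the centromeric H3, was higher (0.23, adjusted p 0.0136; 0.0501 without WT replicate 3). Of 11 histone chaperones HIRA alone was called (9.09%, beside 26.7% of all tested genes). With the block 2 were called (18.2%, beside 35.1% of all tested genes). HIRA was lower (−0.32, limma-voom adjusted p 0.000693), and it lies on chromosome 22. Among the other 10 the median was 0.01.

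In bulk RNA, fewer cells in S phase and less histone mRNA per cell cannot be told apart. Of 17 S-phase genes, 2 were higher and 4 were lower (35.3% called, beside 26.7% of all tested genes). Their median log2 fold change was −0.07. With a block for replicate number 10 of the 17 passed (58.8%, beside 35.1% of all tested genes). Outside chromosome 22 and the chromosome 16 stretch named above, 15 S-phase genes had 2 higher and 2 lower without the block. That was 26.7% called, the same as the share of all tested genes, with a median of −0.06. GINS2, a helicase cofactor, was higher (0.18, limma-voom adjusted p 0.0197; up to 0.0611 without KO replicate 1 or 3). PCNA, the sliding clamp of DNA synthesis, had 197, 211 and 213 CPM in WT and 189, 182 and 182 CPM in THUMPD1 KO (−0.17, SE 0.0442, adjusted p 0.0148). MCM6, a subunit of the replicative helicase, was lower (−0.15, adjusted p 0.0372). Both calls were lost without WT replicate 2 or 3 or KO replicate 2 or 3, with adjusted p up to 0.0743 and 0.139. The helicase genes MCM5 (−0.55) and CDC45 (−0.31) were lower and lie on chromosome 22. Summed over the 17 genes the level was 3688, 3631 and 3654 CPM in WT and 3729.5, 3524 and 3554 CPM in THUMPD1 KO, a log2 ratio of −0.02. KO replicate 1 was the highest of the KO libraries in this sum, as it was in the histone sum. The part of S phase in the histone result was not tested.

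**Figure D5:**
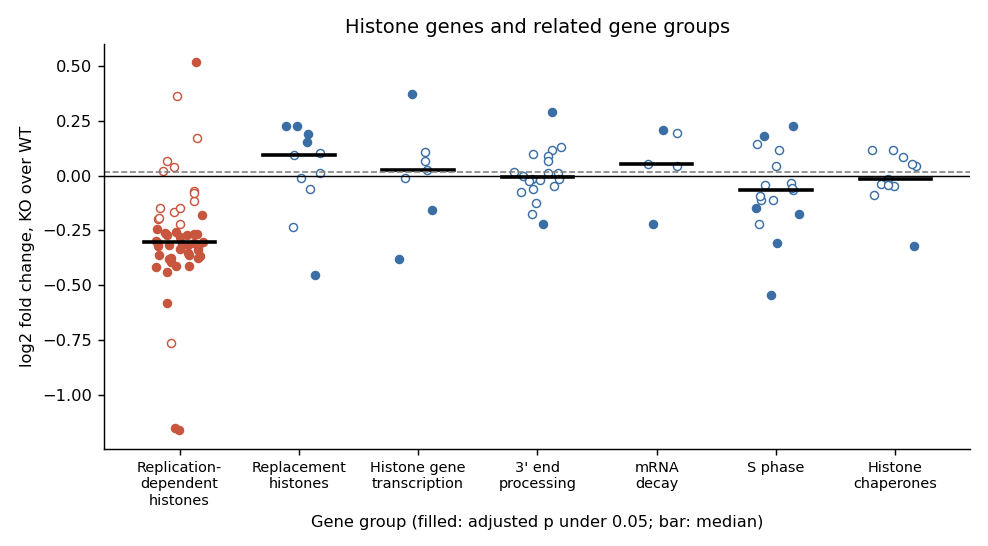
Log2 fold change, THUMPD1 KO over WT, of each tested gene in the replication-dependent histone class and in 6 related lists. Filled points had an adjusted p under 0.05, black bars are medians and the dashed line is the median of all tested genes; the medians are −0.30 for replication-dependent and 0.09 for replacement histones, and between −0.07 and 0.05 for the other lists.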

How the data were processed

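RNA-seq covered 3 WT and 3 THUMPD1 KO libraries of HEK-293T. The authors aligned stranded paired-end reads of total RNA depleted of ribosomal RNA to GRCh38 (hg38) with STAR and deposited gene-level expected counts from RSEM, unscaled between libraries. Reads shared by near-identical genes were thus divided by estimate. The members, gene lists and tests were chosen with earlier results of these data known.

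Positions came from GENCODE 44, in which 99.3% of gene IDs matched. CPM are the deposited expected counts over library totals. Genes reaching 1 CPM in 3 or more libraries went through quantile normalization and limma-voom (limma 3.58.1, R 4.3.3) with genotype as the only term, as in the study's methods. Tests were two-sided, Benjamini-Hochberg adjusted over 15088 genes. The script was tested on simulated data. Alternatives were TMM library sizes, library sizes alone, other filters, edgeR 4.0.16 and DESeq2 1.42.0 (rounded counts), a replicate block, removal of a GC and length trend (natural splines with 5 degrees of freedom), and each library left out in turn.

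Named genes were THUMPD1, the 3 most abundant members of each type, at most 25 called members by adjusted p, 7 transcription and processing genes, and, from every other list, up to 5 called genes by adjusted p. Members of copies, pairs, loci and types outside this rule were named after their values were seen. Some listed genes are counted in their list and not reported singly here.

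Genotypes share replicate numbers, and the labels do not say what these mark. Deviations from the genotype means correlated at 0.270, 0.227 and 0.142 for libraries with the same number and at −0.254 to 0.0902 for others (15088 genes). The numbers were thus taken to pair the libraries in the replicate block. Unless the block is named, p values and calls come from fits that leave this pairing out.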

Additional observations from a re-analysis of the deposited data

How the results depend on the processing

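Of 51 tested members, 39 passed with TMM library sizes (25.8% of all tested genes), 36 with library sizes alone (25.9%), 40 with edgeR (25.7%), 38 with DESeq2 (24.3%), 40 with the replicate block (39 lower, 1 higher; 35.1%), 29 with the GC and length trend removed (29.3%), 36 with that removal and the replicate block (36.9%), and 26 to 38 with 1 library left out (17.6 to 28.1%). Of the 35 called lower, 23 were called in every alternative that tested them, out of at most 15. The summed H3 log2 ratio was −0.39 without its most abundant gene, HIST2H3C, whose reads are divided with HIST2H3A. Small lists varied more. Over all tested genes 25.9% were called with library sizes alone, 35.1% with the replicate block, 29.3% with the trend removed and 36.9% with both. Processing genes called numbered 4 with the replicate block (20%), 5 with the trend removed (25%) and 6 with both (30%). S-phase genes called numbered 10 with the replicate block (58.8%). Chaperones called numbered 2 with library sizes alone, the replicate block or the trend removed (18.2% each) and 4 with both (36.4%). With 1 library left out, 17.6 to 28.1% of all tested genes were called. The count was then 1 to 2 for decay genes (20 to 40%) and 3 to 5 for replacement histones (27.3 to 45.5%). It was 3 to 6 for S-phase genes (17.6 to 35.3%) and 1 to 2 for chaperones (9.09 to 18.2%). Decay fell to 1 without WT replicate 3 or KO replicate 3, replacement histones to 3 without KO replicate 2 or 3, S phase to 3 without KO replicate 3, and chaperones rose to 2 without WT replicate 1 or KO replicate 1. Signs were reversed for genes that were not called. These were HIST2H3C at 0.052 with the trend removed and 0.052 with the block added, and, with library sizes alone, NPAT at 0.000457, CASP8AP2 at 0.00505 and SLBP at 0.00926. With 1 library left out the log2 fold change ran from −0.034 to 0.022 for NPAT, −0.037 to 0.020 for CASP8AP2 and −0.00929 to 0.00923 for SLBP, positive without KO replicate 3 and, for SLBP, also at 0.00344 without WT replicate 1. Members named outside the rule also crossed 0 in some alternatives, with HIST1H2BF as low as −0.039, HIST2H2AB as low as −0.088, HIST2H4B as low as −0.030 and HIST2H2AA3 as high as 0.057. The replicate block changed the call of LSM11, HIST2H3A and HIST1H2AD and of no other gene named above. The cause of these changes was not tested.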
